A study of Mus musculus with 5 samples.

Results

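The CC and CXC chemokines, together with fractalkine (Cx3cl1) and lymphotactin (Xcl1), were examined in 2 kinds of cultured mouse cells. Members were chosen by symbol alone: Ccl or Cxcl followed by a number, with at most 1 letter after the number for Ccl genes, plus Cx3cl1 and Xcl1. The rule gave 40 genes, 25 of the CC class, 13 of the CXC class and 2 others, of 24843 genes or transcripts without a symbol in the files. They were built from 61 transcript entries with 53 distinct RefSeq identifiers. The study set the 3D genome of female germline stem cells (FGSCs) beside that of other stem cells and of somatic cells, and the RNA-seq examined here covers the neural stem cells (NSCs, 2 samples) and the STO cells (3 samples).

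The NSCs were primary cells of C57BL/6 mouse cortex at E12.5, used at passages 5 to 8 and grown as a monolayer on poly-l-ornithine and laminin in a serum-free medium with EGF, bFGF, heparin and B27. The STO cells are a line of SIM mouse embryonic fibroblasts resistant to thioguanine and ouabain, labelled C57BL/6 as well, beyond passage 30 and grown in DMEM with fetal bovine serum. STO cells also served the study as feeder layer for FGSCs, but the samples here are labelled as STO cells on their own. No treatment is labelled for either group. Cell type, passage and medium differ together between the groups, so their parts in a difference cannot be told apart, and a single line stands for the fibroblasts. Nothing in the labels says that the replicates came from separate cultures, so p-values measure the spread between these samples, which may be technical.

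Levels are FPKM, the fragments of a transcript scaled by its length and by the mapped fragments of the sample, which the authors deposited for each transcript and which were summed here per gene symbol. The deposited intervals implied 15223341 to 22271895 fragments per sample, and replicates correlated at a Pearson r of 0.994 in NSCs and 0.995 to 0.996 in STO cells over genes on the log2 scale. The NSC markers Sox2 and Nes had 308 and 276 FPKM and 176 and 169 FPKM in the NSC samples, and in STO cells Sox2, Pax6 and Olig2 were listed at 0 in every sample while Nes reached at most 0.0724 FPKM. The 4 fibroblast markers Col1a1, Col1a2, Col3a1 and Fn1 summed to 1283 to 1397 FPKM in STO cells and to 3.997 to 4.250 FPKM in NSCs. The 9 markers of microglia and macrophages, which are rich sources of chemokines, summed to 0.295 to 0.425 FPKM in NSCs and 0.227 to 0.412 FPKM in STO cells, and Adgre1, C1qa and Tyrobp were listed at 0 in every sample of both. Of the 9, 6 were listed at 0 in every NSC sample and 3 in every STO sample, and the sums come from the rest. Most of the NSC sum came from 1 marker, read in each NSC sample. The 4 endothelial markers summed to 0.458 to 0.510 FPKM in NSCs and 0.341 to 0.576 FPKM in STO cells.

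Chemokines are small secreted proteins that guide the migration of leukocytes and of some progenitor cells through receptors with 7 membrane-spanning segments, and they are classed by the spacing of the first cysteines of the mature protein. Most of the inflammatory ones are switched on by NF-kappaB after signals such as tumour necrosis factor, interleukin-1 or bacterial products, and fibroblasts are a known source. Others are made without such signals: CXCL12 holds stem cells in their niches and guides neural progenitors through the receptor CXCR4, and CX3CL1, a membrane-anchored chemokine of neurons, signals to the microglial receptor CX3CR1.

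STO cells held 9.36 times the summed chemokine FPKM of NSCs, and other genes led it. The summed FPKM of the 40 genes was 93.4 and 99.8 in the NSC samples and 937, 870 and 908 in the STO samples. In STO cells Ccl2 made up 35.9% of this sum, Cxcl1 26.9%, Cxcl12 20.1%, Cxcl5 8.45% and Ccl7 4.55%, together 95.9%. In NSCs Cx3cl1 made up 70.2% and Cxcl14 20.6%, together 90.7%, and Ccl25 followed with 3.47%. Cx3cl1 and Cxcl14 are thus the main chemokine transcripts of the NSCs, while the STO cells transcribed mainly ligands of monocyte and neutrophil receptors and the ligand of CXCR4.

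Of the 40 genes, 12 had a mean of at least 1 FPKM in NSCs or in STO cells and were tested, 13 had lower non-zero values and 15 were listed at 0 in all 5 samples. In the limma fit over all genes (Benjamini-Hochberg adjusted p under 0.05), 9 of the 12 were higher in STO cells, against 41.9% of the 12277 genes tested, and 2 were lower in STO cells, against 43.7% of genes. When a log2 fold change of at least 1 was also required, the counts remained 9 and 2, against 17.1% and 21.3% of genes. The median log2 fold change of the 12 was 3.07, on the scale of log2(FPKM + 1) and as STO minus NSC, and that of all genes tested was -0.02. A gene enters the test through the group in which it is high, so these counts describe the 12 genes and not the family.

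**Figure D1:**
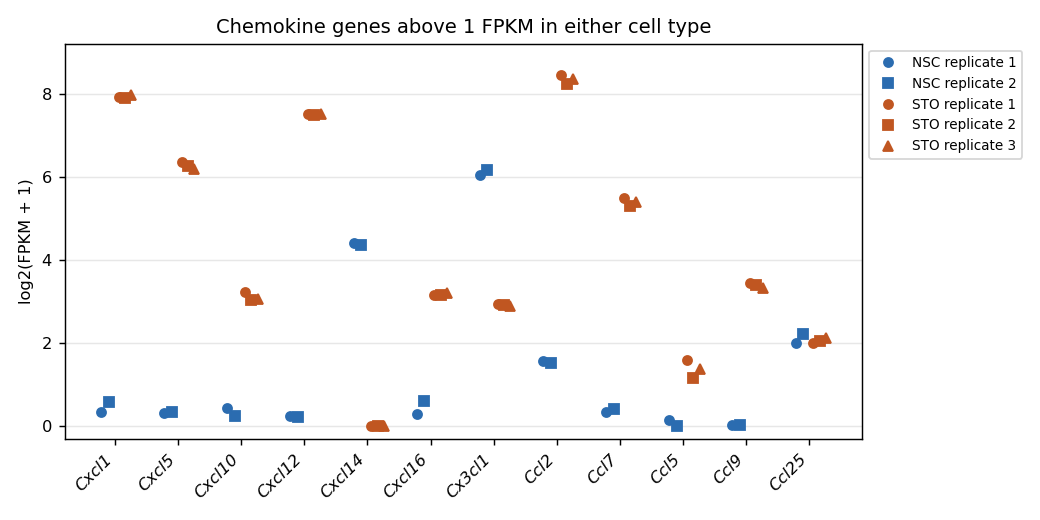
Level of each of the 12 tested chemokine genes as log2(FPKM + 1) in each NSC sample (blue) and STO sample (orange), with the replicate given by the shape of the point. The replicates of a cell type lie close together, the STO points lie above the NSC points for 9 genes and below them for Cx3cl1 and Cxcl14, and the groups overlap for Ccl25. The share of all genes whose groups do not overlap was not counted. Of all genes tested, 41.9% passed the threshold as higher and 43.7% as lower.

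**Figure D2:**
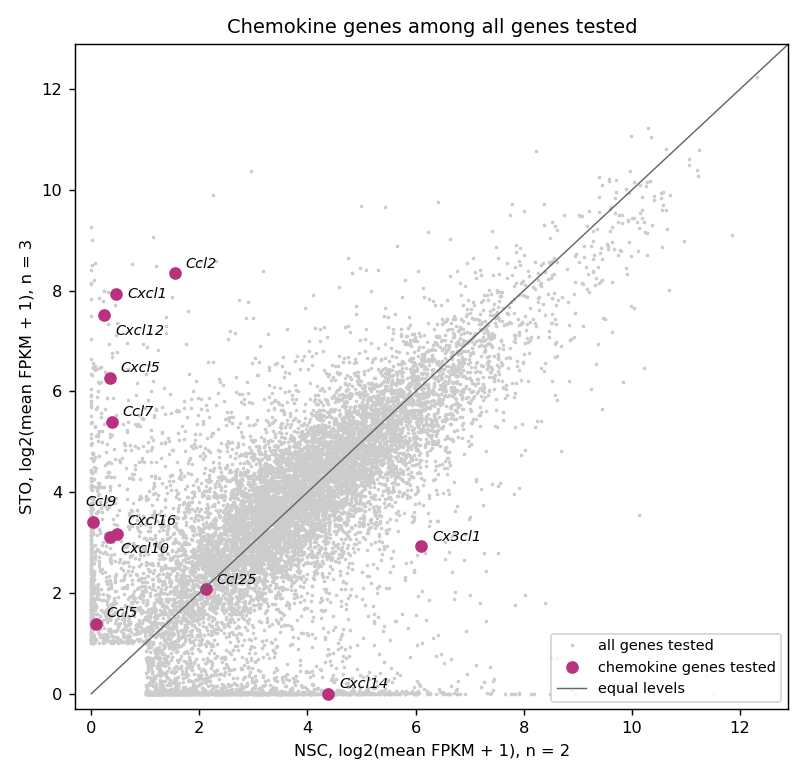
Mean level in STO cells (vertical axis, n = 3) against mean level in NSCs (horizontal axis, n = 2), both as log2(mean FPKM + 1), for the 12277 genes tested (grey) and the 12 chemokine genes tested (purple), with the line of equal levels. Ccl2, Cxcl1 and Cxcl12 stand far above the line, Cx3cl1 and Cxcl14 below it and Ccl25 on it.

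The monocyte chemoattractants were the most abundant group in STO cells. Ccl2, the main attractant of CCR2-bearing monocytes, had 1.97 and 1.87 FPKM in the NSC samples and 348, 300 and 326 FPKM in the STO samples. All STO samples were far above both NSC samples, and within STO cells Ccl2 stood at rank 164 of all genes. The ratio of the means was 169, with a 95% interval of 139 to 207 for counting error only, and the log2 fold change was 6.80 ± 0.07 (SE; limma adjusted p = 5.49e-09), rank 26 among the rises of all genes tested. Ccl7, which also acts on CCR2, had 0.279 and 0.327 FPKM in NSCs and 43.7, 38.3 and 41.4 FPKM in STO cells. Its ratio of means was 136 and its log2 fold change 5.01 ± 0.07 (SE; limma adjusted p = 1.17e-08). In both genes the STO samples fell in the same order, with replicate 1 highest and replicate 2 lowest, and the SD over STO samples was 23.6 FPKM for Ccl2 and 2.72 FPKM for Ccl7.

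The other genes of this group, the eotaxin Ccl11 and the monocyte attractants Ccl8 and Ccl12, were near or at 0. Ccl11, a ligand of the eosinophil receptor CCR3, had 0 and 0.0270 FPKM in NSCs and 0.207, 0.0361 and 0.298 FPKM in STO cells. Ccl12 was read in 1 STO sample only, at 0.0722 FPKM, and Ccl8 in none. The 6 genes from Ccl2 to Ccl1 lie side by side at chr11:81849079-81993314 of mm9, over 144 kb, and Ccl2 and Ccl7 are the first 2 of this row, with left ends 10.1 kb apart. Ccl11 begins 22.3 kb from the left end of Ccl2 and had a mean of 0.180 FPKM in STO cells, and Ccl1, at the far end, was listed at 0 in every sample.

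**Figure D3:**
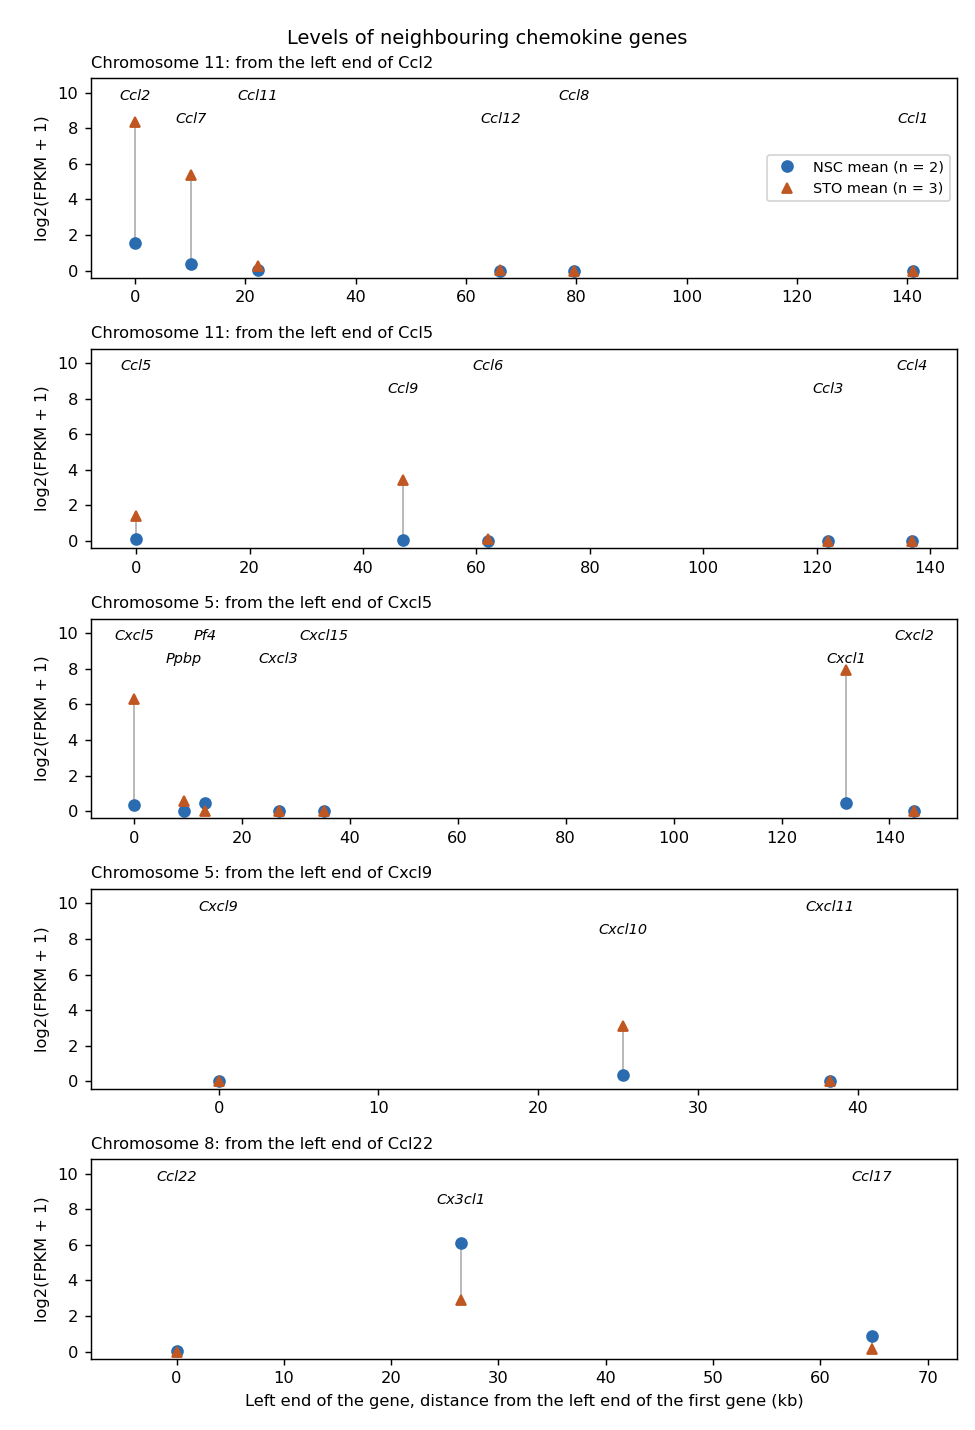
Mean level of neighbouring chemokine genes as log2(FPKM + 1) in NSCs (circles, n = 2) and STO cells (triangles, n = 3), placed by the left end of each gene in kb from the left end of the first gene in each of 5 groups of neighbours, which include Ppbp and Pf4. The genes above 1 FPKM in a cell type are Ccl2 and Ccl7, Ccl5 and Ccl9, Cxcl5 and Cxcl1, Cxcl10, and Cx3cl1, and their neighbours are below 1 FPKM.

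The row of macrophage inflammatory protein genes at chr11:83339281-83478185 (mm9, 139 kb) had the same mixed pattern at lower levels. Ccl9, a ligand of CCR1 found in mice, had 0.0211 and 0.0193 FPKM in NSCs and 9.99, 9.58 and 9.07 FPKM in STO cells, with no overlap. The NSC values rested on 4 implied fragments in all, so the ratio of 472 has a counting interval of 184 to 1735, and the log2 fold change was 3.37 ± 0.06 (SE; limma adjusted p = 2.30e-08). Ccl5 (RANTES), an attractant of T cells and monocytes that binds CCR1, had 0.120 and 0 FPKM in NSCs and 2.00, 1.24 and 1.59 FPKM in STO cells. Its 2 implied NSC fragments give a ratio of 26.9 with a counting interval of 7.17 to 226, and its log2 fold change was 1.29 ± 0.13 (SE; limma adjusted p = 9.68e-05). Ccl6 had 0.0617, 0.0539 and 0.0810 FPKM in STO cells and was listed at 0 in NSCs. Ccl3 and Ccl4, the MIP-1 genes of activated macrophages, were listed at 0 in all 5 samples.

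The ELR-type CXC chemokines, which draw neutrophils through CXCR2, were the second group in STO cells and were also unevenly used. Cxcl1 (KC) had 0.268 and 0.489 FPKM in NSCs and 242, 240 and 249 FPKM in STO cells. The STO samples lay close together (SD 4.78 FPKM), at rank 221 of all genes, and far above both NSC samples. The ratio of means was 644, with a counting interval of 432 to 1005, and the log2 fold change was 7.48 ± 0.08 (SE; limma adjusted p = 5.23e-09), rank 18 among the rises of all genes. Cxcl5 (LIX) had 0.250 and 0.280 FPKM in NSCs and 81.7, 76.2 and 71.6 FPKM in STO cells, again without overlap. Its ratio of means was 289 and its log2 fold change 5.93 ± 0.07 (SE; limma adjusted p = 6.67e-09). Cxcl2 (MIP-2), which is known to be induced beside Cxcl1 in inflammation and starts 12.7 kb from it, had 0, 0.0357 and 0.0269 FPKM in STO cells and 0.0294 and 0 FPKM in NSCs, so the groups overlapped. Cxcl3 had 0.0435, 0 and 0.0286 FPKM in STO cells and 0 in NSCs, and Cxcl15 had at most 0.0182 FPKM in any sample.

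Cxcl1, Cxcl2 and Cxcl3 were thus read at very different levels in the same STO samples although they are close relatives in 1 row of genes at chr5:91188324-91334964 (mm9, 147 kb). Their upstream sequences are shown because the letters near the start are alike. Each line gives the 250 bases before the RefSeq start in GRCm38.p6, in capitals where the NF-kappaB consensus or TATAAA matched on either strand.
Cxcl1, chr5:90890995-90891244, plus strand: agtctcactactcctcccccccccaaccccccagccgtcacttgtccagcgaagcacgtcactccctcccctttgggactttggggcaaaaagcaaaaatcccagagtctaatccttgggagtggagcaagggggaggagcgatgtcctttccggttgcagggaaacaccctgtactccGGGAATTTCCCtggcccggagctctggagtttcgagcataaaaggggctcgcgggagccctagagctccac
Cxcl2, chr5:90903649-90903898, plus strand: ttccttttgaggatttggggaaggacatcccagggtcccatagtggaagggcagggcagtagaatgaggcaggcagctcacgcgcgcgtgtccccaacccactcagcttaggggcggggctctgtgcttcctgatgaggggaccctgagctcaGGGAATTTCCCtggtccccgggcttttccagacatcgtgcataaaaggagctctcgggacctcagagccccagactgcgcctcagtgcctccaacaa
Cxcl3, chr5:90785851-90786100, plus strand: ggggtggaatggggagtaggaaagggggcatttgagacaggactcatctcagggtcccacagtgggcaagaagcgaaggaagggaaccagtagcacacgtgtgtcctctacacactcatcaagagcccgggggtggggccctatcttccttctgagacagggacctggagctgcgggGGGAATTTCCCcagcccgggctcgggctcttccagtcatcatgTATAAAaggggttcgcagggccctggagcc
All 3 hold the same run GGGAATTTCCC, which gave 2 overlapping matches to the consensus and begins 71, 97 and 73 bases before the start. Cxcl3 also has TATAAA beginning 30 bases before the start. After the shared run, Cxcl1 and Cxcl2 hold CATAAA, which differs from TATAAA in the first base and was not searched for. The levels in STO cells were 244 FPKM (mean) for Cxcl1 and 0.0209 and 0.0240 FPKM for Cxcl2 and Cxcl3. A match is a description of letters and says nothing of whether a factor was bound.

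The promoter table held windows for 28 of the 40 genes and for 7 of the 12 tested. Windows run from 250 bases before to 50 bases after the start. The NF-kappaB consensus, searched on both strands, was found for 7 of the 28 genes (Ccl9, Ccl20, Ccl27a, Cxcl1, Cxcl2, Cxcl3 and Cxcl10) and in 4.505% of all 32851 windows. Of these 7 genes, Cxcl1, Ccl9 and Cxcl10 were higher in STO cells, and Ccl20, Ccl27a, Cxcl2 and Cxcl3 were near or at 0 in both cell types. TATAAA was found for 10 of the 28 genes and in 13.6% of all windows. Ccl2, Ccl5, Ccl7, Cxcl5 and Cxcl16 were not matched to a window.

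Among the interferon-inducible ligands of CXCR3, which attract activated T cells, only Cxcl10 (IP-10) passed 1 FPKM. It had 0.347 and 0.185 FPKM in NSCs and 8.38, 7.21 and 7.35 FPKM in STO cells, with no overlap, a ratio of means of 28.8 and a log2 fold change of 2.77 ± 0.09 (SE; limma adjusted p = 3.70e-07). Cxcl9, its neighbour at chr5:92750357-92792322 (mm9, with Cxcl11), stayed at or below 0.0266 FPKM in every sample, and Cxcl11 was listed at 0 in all 5. The sequence before Cxcl10 is shown because it holds the NF-kappaB consensus at 2 separate places, beginning 159 and 103 bases before the start. It also holds the interferon response motif, beginning 213 bases before the start and not set in capitals.
Cxcl10, chr5:92348890-92349139, minus strand: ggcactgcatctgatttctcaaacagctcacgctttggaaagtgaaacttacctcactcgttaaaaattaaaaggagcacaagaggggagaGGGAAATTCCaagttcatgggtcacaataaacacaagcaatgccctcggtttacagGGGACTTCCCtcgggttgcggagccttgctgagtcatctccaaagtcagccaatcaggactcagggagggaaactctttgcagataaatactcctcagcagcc

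Cxcl12 (SDF-1), the ligand of CXCR4 and of the atypical receptor ACKR3, was the steadiest of the abundant chemokines in STO cells. Its sum over 3 RefSeq transcripts was 0.197 and 0.169 FPKM in NSCs and 183, 179 and 183 FPKM in STO cells (mean 182 ± 2.52, SD, n = 3). The groups did not overlap, the ratio of means was 993 with a counting interval of 751 to 1343, and the log2 fold change was 7.27 ± 0.05 (SE; limma adjusted p = 3.13e-09), rank 22 among the rises of all genes. The transcripts code for isoforms that differ in their last residues. The alpha form had 128, 125 and 133 FPKM in STO cells and made up 70.8% ± 1.33 (SD, n = 3) of the gene. The beta form had 33.6, 34.8 and 33.6 FPKM and 18.7% ± 0.640, and the gamma form had 21.2, 18.8 and 17.1 FPKM and 10.46% ± 1.13. The order alpha, beta, gamma held in each STO sample. The NSC values of single isoforms were between 0 and 0.169 FPKM, and alpha was at 0 in both NSC samples. The 49 implied NSC fragments of the gene were thus assigned to the beta and gamma transcripts, which are longer. The ratio of means depends on that assignment, which the counting interval does not cover.

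The ends of the 3 coding sequences are shown because they are what sets the isoforms apart. They were read from NCBIM37 (mm9) with the GENCODE models of the same isoforms, on the plus strand at chr6:117118553-117131386. Each line gives the last 30 of 267 coding bases that all 3 share, in lower case, and the isoform's own coding bases with the stop codon in capitals.
Cxcl12 alpha: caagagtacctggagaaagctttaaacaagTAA
Cxcl12 beta: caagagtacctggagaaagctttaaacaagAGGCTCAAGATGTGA
Cxcl12 gamma: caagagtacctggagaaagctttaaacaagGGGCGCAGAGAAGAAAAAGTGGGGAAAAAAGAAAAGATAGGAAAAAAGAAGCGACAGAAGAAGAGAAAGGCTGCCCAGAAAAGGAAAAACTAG
The alpha form ends directly after the shared bases (89 residues), the beta form adds 4 codons (93 residues) and the gamma form adds 30 codons (119 residues), a tail that is rich in basic residues and binds heparan sulfate in the extracellular matrix. Transcripts were named by RefSeq identifier. Those of the beta and gamma forms share 1 locus in the files, and that of the alpha form overlaps it from the same left end. The split among all 3 thus rests on the estimate the authors' program made from overlapping reads.

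**Figure D4:**
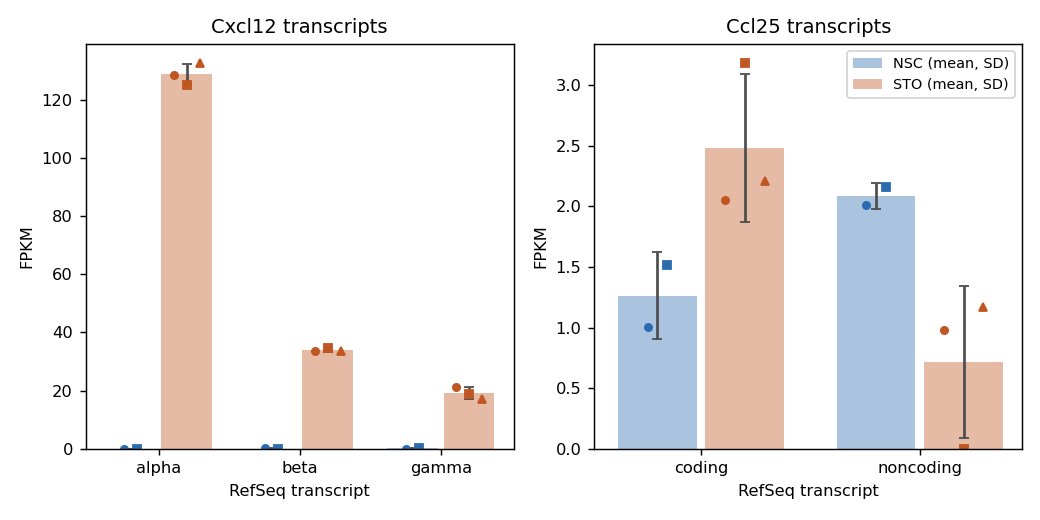
FPKM of the 3 Cxcl12 transcripts (left) and the 2 Ccl25 transcripts (right) in NSCs (blue, n = 2) and STO cells (orange, n = 3), with bars for the mean, lines for the SD and points for the samples. Cxcl12 alpha lies above beta and beta above gamma in every STO sample, while the Ccl25 noncoding transcript was at 0 in STO replicate 2 and near 1 FPKM in the other two.

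When transcripts were tested alone, an alternative chosen after the values were seen, 77.1% of all 16257 transcripts tested passed the threshold in either direction. Of the 16 chemokine transcripts tested, 13 were higher in STO cells, 2 were lower and 1, from Ccl25, did not pass. The share of all transcripts passing in each direction was not counted. Some of the 13 come from the same gene, as for Cxcl12 and Cxcl16. All 3 Cxcl12 transcripts were higher in STO cells, with log2 fold changes of 7.02 for alpha, 5.04 for beta and 4.16 for gamma, of which that of alpha depends on the pseudocount, since alpha was listed at 0 in both NSC samples. For Cxcl16, the coding transcript had 0 and 0.313 FPKM in NSCs and 6.206, 6.604 and 6.172 FPKM in STO cells.

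Cxcl14 was the reverse of Cxcl12. This chemokine of epithelia and brain, made without inflammation, had 20.2 and 19.6 FPKM in NSCs and was listed at 0 in all 3 STO samples. The log2 fold change was -4.38 ± 0.05 (SE; limma adjusted p = 5.24e-09), a value that depends on the pseudocount because of the zeros, so no ratio is given. Cxcl14 and Cxcl12 are set side by side because neither window held the NF-kappaB consensus or TATAAA, although the genes were high in opposite cell types. The Cxcl14 window held the interferon response motif, beginning 172 bases before the start, and the Cxcl12 window did not.
Cxcl12, chr6:117168285-117168534, plus strand: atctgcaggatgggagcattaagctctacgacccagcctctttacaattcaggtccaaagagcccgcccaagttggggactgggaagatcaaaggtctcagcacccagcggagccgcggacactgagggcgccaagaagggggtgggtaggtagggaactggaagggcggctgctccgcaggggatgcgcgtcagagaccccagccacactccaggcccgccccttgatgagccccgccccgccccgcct
Cxcl14, chr13:56296552-56296801, minus strand: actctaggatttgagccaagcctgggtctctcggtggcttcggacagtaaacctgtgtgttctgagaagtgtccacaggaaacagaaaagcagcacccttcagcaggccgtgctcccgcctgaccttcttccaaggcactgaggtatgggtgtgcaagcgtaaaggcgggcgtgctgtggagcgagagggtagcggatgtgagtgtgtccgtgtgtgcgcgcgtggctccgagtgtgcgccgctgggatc
The full windows held 20 and 22 CG dinucleotides, against a median of 7 over all windows. Cxcl13, the B cell attractant of lymphoid follicles, and Cxcl17, a mucosal chemokine, were listed at 0 in all samples.

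The membrane-anchored chemokines went in opposite directions. Cx3cl1 had 65.2 and 70.5 FPKM in NSCs and 6.74, 6.56 and 6.47 FPKM in STO cells. Both NSC samples lay above all STO samples, the NSC mean was 10.3 times the STO mean, and the log2 fold change was -3.18 ± 0.06 (SE; limma adjusted p = 2.78e-08). Beside Ccl2, Cx3cl1 was the only member past the threshold with more than 1 FPKM in every sample. Cxcl16, a ligand of CXCR6 that also serves as a scavenger receptor for oxidised lipoprotein, had 0.235 and 0.534 FPKM in NSCs and 7.93, 8.00 and 8.22 FPKM in STO cells. Its ratio of means was 21.0 and its log2 fold change 2.72 ± 0.09 (SE; limma adjusted p = 6.35e-07). Cx3cl1 lies between Ccl22 and Ccl17 at chr8:97269584-97335936 (mm9, 66.4 kb). Ccl17, a ligand of CCR4, had 0.371 and 1.24 FPKM in NSCs and 0.172, 0.151 and 0.0566 FPKM in STO cells, and Ccl22, which acts on the same receptor, had 0.0176 and 0.0160 FPKM in NSCs and 0 in STO cells.

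Markers of other neural cells were also read at higher summed levels in the NSC samples, in which Cx3cl1 and Cxcl14 were high. The 4 neuron markers Tubb3, Dcx, Map2 and Rbfox3 summed to 115 FPKM in each NSC sample and to 12.3 to 12.8 FPKM in STO cells, where Rbfox3 was listed at 0 in every sample. Map2 made up most of the NSC sum, with 100.4 and 102.0 FPKM against 4.26, 4.48 and 4.19 FPKM in STO cells, while Tubb3 overlapped between the groups, with 9.25 and 8.14 FPKM in NSCs and 8.57, 7.84 and 8.49 FPKM in STO cells. The 3 astrocyte markers Gfap, Aqp4 and Aldh1l1 summed to 64.5 FPKM in each NSC sample and to 0.150 to 0.219 FPKM in STO cells, and none was at 0 in NSCs. Their part in the levels of Cx3cl1 and Cxcl14 was not tested, and in bulk samples fewer cells of a type and less RNA per cell cannot be told apart.

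Ccl25 (TECK), which attracts thymocytes and gut-homing T cells through CCR9, was the only tested member not past the threshold. Its sum was 3.02 and 3.68 FPKM in NSCs and 3.04, 3.18 and 3.38 FPKM in STO cells, so that the groups overlapped. The log2 fold change was -0.05 with a 95% interval of -0.24 to 0.15 (limma adjusted p = 0.600). Its 2 transcripts begin 24.4 kb apart and were also tested alone. The coding transcript, from the downstream start, had 1.01 and 1.52 FPKM in NSCs and 2.06, 3.18 and 2.21 FPKM in STO cells, without overlap (log2 fold change 0.62 ± 0.19, SE; limma adjusted p = 0.033 among transcripts). The noncoding transcript, from the upstream start, had 2.01 and 2.16 FPKM in NSCs and 0.980, 0 and 1.17 FPKM in STO cells, and its change of -0.92, with a 95% interval of -1.92 to 0.07, did not pass the threshold (limma adjusted p = 0.078). The transcripts overlap, and the split in STO replicate 2 (0 against 3.18 FPKM) differed from that of the other STO samples. The sequences before both starts are shown because they differ in make-up.
Ccl25 upstream start, chr8:4324960-4325209, plus strand: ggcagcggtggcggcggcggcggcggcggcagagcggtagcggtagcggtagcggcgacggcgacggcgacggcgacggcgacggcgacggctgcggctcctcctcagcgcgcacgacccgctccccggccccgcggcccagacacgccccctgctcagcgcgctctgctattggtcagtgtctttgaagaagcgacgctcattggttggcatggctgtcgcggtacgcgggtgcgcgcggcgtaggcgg
Ccl25 downstream start, chr8:4349338-4349587, plus strand: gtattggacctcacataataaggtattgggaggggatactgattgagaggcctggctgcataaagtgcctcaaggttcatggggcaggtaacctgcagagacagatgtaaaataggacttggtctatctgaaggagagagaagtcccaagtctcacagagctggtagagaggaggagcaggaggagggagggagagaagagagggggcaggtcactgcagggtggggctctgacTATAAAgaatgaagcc
The full upstream window held 52 CG dinucleotides and none of the motifs searched, and the downstream window held 1 CG dinucleotide and TATAAA beginning 16 bases before the start.

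The 28 members below 1 FPKM had no single value above 1.24 FPKM, that of Ccl17 in NSC replicate 2. Of the 13 that were read at all, 8 had the higher mean in STO cells (Ccl6, Ccl11, Ccl12, Ccl20, Cxcl2, Cxcl3, Cxcl9 and Cxcl15) and 5 in NSCs (Ccl17, Ccl19, Ccl22, Ccl27b and Ccl28). Ccl19, a ligand of CCR7 that guides dendritic cells to lymph nodes, had 0.530 and 0.282 FPKM in NSCs and 0 in STO cells. Its reads fall on copies that cannot be told apart in the files. Ccl28, a mucosal chemokine, had 0.408 and 0.380 FPKM in NSCs and 0, 0.0207 and 0.00778 FPKM in STO cells. Ccl20, the ligand of CCR6, reached 0.145 FPKM in STO cells, and Ccl27b, a skin chemokine, was read in NSC replicate 2 only, at 0.317 FPKM. The 15 genes listed at 0 were Ccl1, Ccl3, Ccl4, Ccl8, Ccl21a, Ccl21b, Ccl21c, Ccl21d, Ccl24, Ccl26, Ccl27a, Cxcl11, Cxcl13, Cxcl17 and Xcl1. None of the entries of the 40 genes carried a failed status in the files.

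Replicates were compared by the coefficient of variation. For the 9 members with a mean of at least 5 FPKM in STO cells it ran from 1.39% to 8.37%, against a median of 4.76% over all genes at that level. For the 2 such members in NSCs it was 2.07% and 5.47%, against 4.89% over all genes. Among tested members at lower levels the spread was wider for Ccl5 in STO cells, at 23.8%, and for Ccl25 in NSCs, at 14.0%, against medians of 5.23% and 5.38% over genes of at least 1 FPKM.

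The receptors were read at low levels in both cultures. Of 18 chemokine receptors only Cxcr4, the receptor of CXCL12, passed 1 FPKM. Cxcr4 entered the test only through NSCs, in which it was high. It had 3.04 and 3.19 FPKM in NSCs and 0.0980, 0.128 and 0.0321 FPKM in STO cells, a log2 fold change of -1.92 ± 0.05 (SE; limma adjusted p = 2.34e-07). Cxcr4 was higher in the cells in which Cxcl12 was near 0, and the STO cells, with 179 FPKM or more of the ligand, had little of the receptor. Ccr2, the receptor of Ccl2 and Ccl7, had at most 0.0216 FPKM in any sample, Cxcr2, the receptor of Cxcl1 and Cxcl5, at most 0.0146 FPKM, Cxcr6, the receptor of Cxcl16, at most 0.187 FPKM, and Cx3cr1, the receptor of Cx3cl1, at most 0.0354 FPKM. Ccr1, which binds Ccl5 and Ccl9, stayed at or below 0.0719 FPKM, Ccr9, which binds Ccl25, at or below 0.0336 FPKM, and Cxcr3, which binds Cxcl10, was listed at 0 in every sample.

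Ackr3, an atypical receptor that takes up CXCL12 without classical signalling, was the only 1 of 5 atypical or scavenging receptors above 1 FPKM. It had 6.06 and 5.82 FPKM in NSCs and 34.99, 31.96 and 33.65 FPKM in STO cells, a log2 fold change of 2.31 ± 0.06 (SE; limma adjusted p = 1.37e-07). Among the 2 receptors of CXCL12, Cxcr4 was thus the lower and Ackr3 the higher in STO cells.

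Genes of the NF-kappaB pathway, which drives many inflammatory chemokines, were tested for all 14 listed: 11 were higher in STO cells, 0 were lower (0 also at an unadjusted limma p under 0.05) and 3 (Nfkbib, Ikbkb and Ikbkg) did not pass the threshold, against 41.9% of all genes higher and 43.7% lower. With a log2 fold change of at least 1 also required, 9 were higher, against 17.1% of all genes. Bcl3, 1 of the 9, entered the test only through STO cells, in which it was high. The median log2 fold change of the 14 was 1.49, and -0.02 for all genes tested. Nfkbia, the inhibitor that NF-kappaB itself induces, had 32.2 and 32.6 FPKM in NSCs and 119, 106 and 108 FPKM in STO cells (log2 fold change 1.74 ± 0.07, SE). Nfkb2, the p100 subunit of the alternative branch, had 9.034 and 8.403 FPKM in NSCs and 91.9, 87.2 and 87.2 FPKM in STO cells (3.21 ± 0.06). Rela, the p65 subunit, had 21.9 and 21.8 FPKM in NSCs and 43.6, 44.4 and 43.1 FPKM in STO cells (0.97 ± 0.05). Nfkbiz, a nuclear partner of NF-kappaB, had 4.975 and 4.200 FPKM in NSCs and 44.7, 42.5 and 42.0 FPKM in STO cells (2.98 ± 0.07). The STO samples lay above the NSC samples for all 4.

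All 14 receptors and adaptors of chemokine-inducing signals were tested: 13 were higher in STO cells and 1 lower, against 41.9% and 43.7% of all genes. With a log2 fold change of at least 1 also required, 6 were higher and 1 lower, against 17.1% and 21.3%, and the median was 0.71 against -0.02 for all genes. Of these 6, Il1r1, Tnfrsf1b, Il17rc, Tlr2 and Tlr4 entered the test only through STO cells, in which they were higher. Myd88 had a mean of at least 1 FPKM in both cell types. Tnfrsf1a, the main receptor of tumour necrosis factor, had 51.7 and 54.5 FPKM in NSCs and 87.2, 80.6 and 81.5 FPKM in STO cells (log2 fold change 0.64 ± 0.06, SE). Il1rap, the accessory chain of the interleukin-1 receptor, was the lower gene, with 49.9 and 55.2 FPKM in NSCs and 19.9, 19.9 and 20.3 FPKM in STO cells (-1.35 ± 0.06). Ifngr2, a chain of the interferon gamma receptor, had 20.3 and 22.3 FPKM in NSCs and 32.3, 33.9 and 33.4 FPKM in STO cells (0.62 ± 0.06), and Ifnar2, a chain of the type I interferon receptor, had 18.4 and 22.1 FPKM in NSCs and 23.3, 22.9 and 24.6 FPKM in STO cells (0.22 ± 0.09; limma adjusted p = 0.049).

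Of 12 other cytokines, 5 were tested, 4 were higher in STO cells and 1 lower, against 41.9% and 43.7% of all genes, with a median of 2.16 against -0.02. Il6 and Csf3 entered the test only through STO cells, in which they were high. Csf1, the growth factor of macrophages, had 6.26 and 6.53 FPKM in NSCs and 73.4, 70.5 and 71.9 FPKM in STO cells (log2 fold change 3.30 ± 0.05, SE). Lif, which FGSC medium contains, had 1.52 and 1.10 FPKM in NSCs and 14.65, 13.13 and 12.95 FPKM in STO cells (2.66 ± 0.10). Il33, an alarmin, was the lower gene, with 4.90 and 5.08 FPKM in NSCs and 2.49, 2.46 and 2.71 FPKM in STO cells (-0.75 ± 0.06). Il6 was listed at 0 in both NSC samples and had 3.61, 3.63 and 3.16 FPKM in STO cells. The inducers themselves were scarcely read: Il1b, Ifng and Ifnb1 were listed at 0 in all samples, and Tnf reached at most 0.0936 FPKM, in an STO sample.

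Of 5 genes for proteins that bind AU-rich or stem-loop elements in chemokine mRNAs, 4 were higher in STO cells and Elavl1, which stabilises such mRNAs, did not pass the threshold, against 41.9% of all genes higher. All 4 also had a log2 fold change of at least 1, against 17.1% of all genes, and the median was 2.13 against -0.02. Zc3h12a, 1 of the 4, entered the test only through STO cells, in which it was high. Zfp36l1 had 57.2 and 59.4 FPKM in NSCs and 159, 170 and 149 FPKM in STO cells (log2 fold change 1.44 ± 0.07, SE). Its relative Zfp36l2 had 21.6 and 24.1 FPKM in NSCs and 108, 106 and 95.7 FPKM in STO cells (2.13 ± 0.08), and Zfp36 (tristetraprolin), which promotes decay, had 2.50 and 2.02 FPKM in NSCs and 56.3, 56.0 and 53.8 FPKM in STO cells (4.11 ± 0.08). Elavl1 had 19.0 and 18.7 FPKM in NSCs and 21.6, 22.7 and 18.8 FPKM in STO cells.

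Of 5 proteases that cut or shed chemokines, 4 were tested, 3 were higher in STO cells and 1 lower, against 41.9% and 43.7% of all genes, with a median of 2.22 against -0.02. Mmp2 and Mmp9 entered the test only through STO cells, in which they were high. Mmp2, which clips Ccl7 and Cxcl12, had 0.228 and 0.236 FPKM in NSCs and 162, 157 and 165 FPKM in STO cells (log2 fold change 7.04 ± 0.05, SE), and Mmp9 had 0.0601 and 0.0274 FPKM in NSCs and 9.94, 10.2 and 9.85 FPKM in STO cells. The sheddases of Cx3cl1 and Cxcl16 differed less. Adam10 had 56.1 and 50.6 FPKM in NSCs and 47.1, 48.4 and 46.7 FPKM in STO cells (-0.16 ± 0.06; limma adjusted p = 0.043), and Adam17 had 12.63 and 12.01 FPKM in NSCs and 26.3, 25.5 and 27.4 FPKM in STO cells (1.04 ± 0.06).

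**Figure D5:**
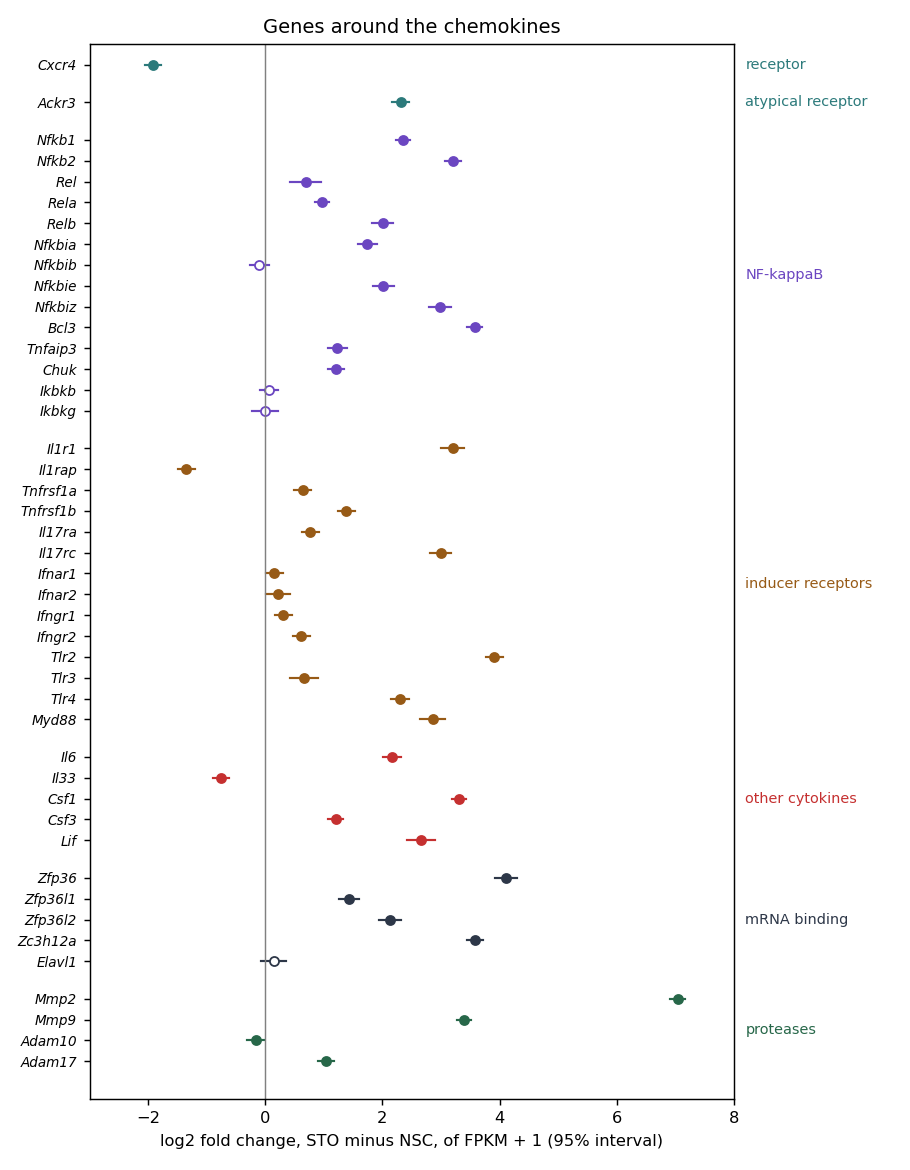
Log2 fold change of FPKM + 1, STO minus NSC, with its 95% interval for the 44 tested genes of the 7 lists around the chemokines, filled where the limma adjusted p was under 0.05. The NF-kappaB genes lie to the right of 0 except for Nfkbib, Ikbkb and Ikbkg, Cxcr4 lies to the left and Ackr3 to the right, and the positions of Il6 and Tnfrsf1b depend on the pseudocount because both were listed at 0 in the NSC samples.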

How the data were processed

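RNA-seq of 2 NSC and 3 STO samples was used, grouped by their titles. By the study's methods and the submitters' processing notes, stranded poly(A) libraries were read as paired ends, aligned to mm9 with HISAT2 (stated version 4.8.2) and quantified with Cufflinks 2.2.1 on RefSeq transcripts. The authors deposited FPKM per transcript, with its interval, for 40201 transcripts, so depth was already divided out. Fragment numbers were implied from the deposited intervals, with the upper bound taken as 2 SD of a Poisson count, and are meant to cover counting error only. For genes of several transcripts they may be too low, and so may the totals per sample. In STO replicate 1, Fn1, with 7 transcripts, had 370 FPKM and 5876 implied fragments. Col1a2, with 1 transcript, had 365 FPKM and 42295 implied fragments there.

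Here, identifiers were matched to symbols with a RefSeq table for GRCm38.p6, used for names only (39951 of 40201 matched), and FPKM were summed per symbol and sample. Coordinates of genes are those of the files (mm9, 1-based). Members, lists and tests were chosen with earlier results of these data known. Every member with a mean of at least 1 FPKM in either cell type was named with each sample's value, and up to 4 genes per pathway list, those with the highest mean in either cell type, plus the receptors of the members named. A marker and a receptor of these lists are not reported here.

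Genes with a mean of at least 1 FPKM in NSCs or STO cells were compared on log2(FPKM + 1) by limma (version 3.58.1, run in R 4.3.3) with moderated variances that follow the mean level, and p-values were adjusted after Benjamini and Hochberg over every gene tested and called under 0.05. Fold changes on this scale understate the change of low genes. The script was tested on simulated data. Alternatives were a pseudocount of 0.1, no filter, a filter of 5 FPKM, quantile and median ratio scaling, no trend, a replicate block, a log2 fold change of at least 1, overlapping loci only, each sample left out, and transcripts tested alone. With 2 against 3 samples an exact permutation test cannot reach the threshold and was not used. Promoter windows were taken from RefSeq (GRCm38.p6), and neighbours were joined where left ends lay within 150 kb. Python 3.11.15 was used for tables and figures.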

Additional observations from a re-analysis of the deposited data

How the results depend on the processing

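The counts of 9 chemokine genes higher and 2 lower in STO cells were found again with the pseudocount of 0.1, quantile or median ratio scaling, no trend, overlapping loci only and the replicate block. With the filter at 5 FPKM, 10 chemokines were tested and 8 were higher and 2 lower, beside 4316 and 4247 of all genes. Without a filter 25 were tested, 10 were higher and 5 lower, beside 5912 and 6551 of all genes. The filter also changes how many genes are tested in all. These counts of all genes are thus not shares, and the shares of the main fit do not apply to them. The additional calls among chemokines, on values under 1.3 FPKM, were Ccl17, Ccl19 and Ccl28 (lower) and Ccl6 (higher). Leaving out each sample gave 9 higher and 2 to 3 lower, with Ccl17 as the additional one. Of 154 values of single members under the alternatives, 152 kept direction and side of the threshold. Both exceptions were Ccl25, whose log2 fold change was 0.14 with quantile scaling (limma adjusted p = 0.18) and ran from -0.16 to 0.063 when each sample was left out. The pseudocount of 0.1 moved log2 fold changes by over 1.5 times for Ccl5 (to 3.50), Ccl9 (6.33), Cxcl10 (4.44), Cxcl14 (-7.64) and Cxcl16 (4.15). Of the 44 pathway genes tested, 40 passed the threshold, and most of all genes also passed it, with 41.9% higher and 43.7% lower. Where a log2 fold change of at least 1 was also required, 29 passed, against 17.1% and 21.3% of all genes. At the filter of 5 FPKM, 32 passed, where fewer of the 44 were tested. A left-out NSC sample leaves 1, which is assumed to vary like the STO samples. Over all genes, 2099 were higher and 2613 lower when a log2 fold change of at least 1 was required. The replicate numbers are not stated to pair the samples, and the deviations of same-numbered samples correlated at 0.003 and 0.064. The fit with the replicate block called 4988 genes as higher and 5249 as lower. Quantile and median ratio scaling moved the median of all genes by 0.04 and -0.05 (log2). Counts below a few fragments, as for Ccl5 and Ccl9 in NSCs, limit how far a ratio can be read.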

Other observations

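Ppbp and Pf4, CXC chemokines of platelets whose symbols fall outside the naming rule, lie between Cxcl5 and Cxcl3. Ppbp had 0.287, 0.715 and 0.457 FPKM in STO cells and was listed at 0 in NSCs. Pf4 had 0.162 and 0.543 FPKM in NSCs and was listed at 0 in STO cells.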
